A study of Mus musculus with 12 samples.

Results

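Nlrp3, Pycard, Casp1, Casp4, Gsdmd, Il1b, Il18, Nod1 and Nod2 are the genes of the inflammasome, of the cytokines it releases and of the related NOD sensors, and they are described here in sorted dendritic cells. They were chosen by name, and each was read from the brightest probe set that carries its symbol alone. All 9 were measured, out of 19938 genes in the series. Each had 1 such probe set.

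An inflammasome is a protein complex that forms in the cytosol after a sensor meets a sign of infection or damage. The sensor NLRP3 recruits the adaptor ASC, encoded by Pycard, which gathers and activates caspase-1. Caspase-1 then cuts the precursors of the cytokines IL-1β and IL-18 into their active forms and cuts gasdermin D, whose fragment makes pores in the cell membrane. Mouse Casp4, also called caspase-11, senses bacterial lipopolysaccharide inside the cell and cuts gasdermin D too. NOD1 and NOD2 bind fragments of bacterial cell wall and signal to NF-κB without cutting cytokines. The mRNA levels given below do not measure whether any complex formed or any protein was cut.

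The cells were type 1 conventional dendritic cells (cDC1), which take up dying cells and present their antigens to CD8 T cells. RNA from 12 sorted samples, 3 in each of 4 groups, was measured on Affymetrix arrays. The groups were migratory cDC1 of skin-draining lymph nodes from mice labelled Xcr1Cre+, the same cells from mice labelled Xcr1++, splenic cDC1 from Xcr1Cre+ mice and splenic cDC1 from Xcr1++ mice. All mice were unimmunised, of the C57BL/6 strain, and carried CD40 fl/fl, that is, loxP sites in both copies of Cd40, also in the Xcr1++ groups. Xcr1Cre+ mice had in addition 1 Xcr1 allele that carries Cre, which is meant to delete CD40 in cells that use the Xcr1 promoter. Xcr1++ mice had none. The labels give no age. Sorted cells lacked B220 and Sirpa and had XCR1 and high MHC class II, with intermediate CD11c in lymph node and high CD11c in spleen. Tissue and the CD11c gate therefore went together, and their effects cannot be told apart. Nothing in the labels says whether replicates were separate animals, and each p-value reflects the variation among these arrays alone, which may be technical.

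Values are RMA intensities on a linear scale, with medians of 66.1 to 74.4 per array, and differences are on the log2 scale. The highest value of 3 Y-linked genes, 22.2, served as background. Cd40, the targeted gene, went against the labels in replicate 3: its lymph node intensities were 1427, 1388 and 3358 under the Xcr1Cre+ label and 2138, 2777 and 1542 under Xcr1++. The splenic values were 365, 214 and 569 under the Xcr1Cre+ label and 572, 525 and 309 under Xcr1++. Replicate 3 was thus higher under the Xcr1Cre+ label in both tissues, and every genotype value below is given by label. The cDC1 genes Batf3 and Irf8 were far above background in all groups. Their means were 2593 and 4028 in lymph node Xcr1Cre+ and 1764 and 5175 in spleen Xcr1Cre+. Of the 12 cDC1 identity genes listed, however, 3 were called higher and 7 lower in lymph node in Xcr1Cre+. In Xcr1++ 2 were higher and 7 lower. The list medians were -1.49 in Xcr1Cre+ and -1.64 in Xcr1++. Clec9a and Tlr3 belong to the same cDC1 list. On the log2 scale in Xcr1Cre+, the level in lymph node relative to spleen fell by 4.13 for Clec9a and fell by 4.69 for Tlr3. Fscn1, which marks migrated dendritic cells, rose by 4.55 in Xcr1Cre+. Xcr1 itself, the sorting marker, was 224, 267 and 236 in lymph node against 1945, 3406 and 3387 in spleen in Xcr1Cre+. Of 10 measured markers of migration and maturation, of 12 listed, 7 were called higher and 1 lower in lymph node in Xcr1Cre+, and 8 were higher and 1 lower in Xcr1++. The lower one was Cd86, a costimulatory ligand, with means of 2676 in lymph node and 6385 in spleen in Xcr1Cre+, and Cd83, another maturation marker, was not called under either label.

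Before the values, 4 upstream sequences are shown, chosen because Nlrp3 and Il1b were far lower in lymph node while Casp4 and its chromosomal neighbour Casp1 were higher. Each run is the 250 bases before the most upstream RefSeq start of the gene (mouse build GRCm38.p6), 5′ to 3′ on the gene's strand, with matches to the NF-κB consensus in capitals. Nlrp3 is on chr11:59541319-59541568 (plus strand), Il1b on chr2:129371140-129371389 (minus strand), Casp1 on chr9:5298267-5298516 (plus strand) and Casp4 on chr9:5308599-5308848 (plus strand).
Nlrp3: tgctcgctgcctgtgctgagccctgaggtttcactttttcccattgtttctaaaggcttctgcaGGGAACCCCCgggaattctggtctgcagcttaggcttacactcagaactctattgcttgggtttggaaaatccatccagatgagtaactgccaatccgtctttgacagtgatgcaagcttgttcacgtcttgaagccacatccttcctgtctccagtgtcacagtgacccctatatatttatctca
Il1b: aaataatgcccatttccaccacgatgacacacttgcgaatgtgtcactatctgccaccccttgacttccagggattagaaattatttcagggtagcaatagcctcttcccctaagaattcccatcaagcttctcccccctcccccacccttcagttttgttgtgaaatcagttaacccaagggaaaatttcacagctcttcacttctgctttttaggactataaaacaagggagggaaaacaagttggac
Casp1: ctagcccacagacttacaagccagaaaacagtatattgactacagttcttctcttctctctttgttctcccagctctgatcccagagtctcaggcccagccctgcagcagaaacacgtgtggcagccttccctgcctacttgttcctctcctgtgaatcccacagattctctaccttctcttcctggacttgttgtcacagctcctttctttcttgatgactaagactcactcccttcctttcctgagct
Casp4: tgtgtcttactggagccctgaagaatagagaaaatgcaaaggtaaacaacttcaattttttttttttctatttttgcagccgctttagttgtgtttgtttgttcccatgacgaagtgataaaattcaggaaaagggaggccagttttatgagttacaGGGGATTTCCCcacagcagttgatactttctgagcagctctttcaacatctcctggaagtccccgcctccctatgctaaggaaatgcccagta

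The NF-κB consensus had 1 match in the Nlrp3 window, on the opposite strand and starting 186 bases before the start site. It had 3 overlapping matches in the Casp4 window, in 1 stretch that starts 93 bases before the start site, read on both strands. The Il1b and Casp1 windows held no match. Of the 8 members with a RefSeq promoter entry, which leaves out Gsdmd, 2 therefore held the motif. Of all 32851 windows of the same length 3.90% did, which is a share of windows and not of genes. Nlrp3, Casp4 and Nod1 had 2 windows each. The other Nlrp3 window held no match, and the other Casp4 window held the same stretch. The ISRE core (GAAA, any 2 bases, GAAA), in 2.98% of windows, and the AP-1 site TGANTCA, in 6.75%, were in none of the 8. The PU.1 site GAGGAAGT, in 2.44% of windows, and the C/EBP site TTGCNNAA, in 9.56%, each had 1 match, both upstream of Pycard. All motifs were searched on both strands. A match is a string of letters and shows no binding.

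The 9 genes differed mainly between tissues. Of the 9, 8 differed between lymph node and splenic cDC1 in Xcr1Cre+ and the same 8 did in Xcr1++, at an adjusted p under 0.05 in limma. Nlrp3, Il1b, Il18, Nod1 and Nod2 were lower in lymph node, Casp1, Casp4 and Gsdmd were higher, and Pycard was not called. Among all genes 28.3% were called in Xcr1Cre+ (13.1% higher, 15.2% lower) and 26.1% in Xcr1++ (12.9% higher, 13.2% lower). For the same 8 members the lymph node arrays and the spleen arrays did not overlap under either label. Among all genes 22.4% lay higher and 18.7% lower without overlap in Xcr1Cre+, and 19% and 17.3% did in Xcr1++. The median difference over the 9 was -0.69 in Xcr1Cre+ and -0.55 in Xcr1++, against 0.07 and 0.03 over all genes. The 2 comparisons share no array. Without replicate 3, the number in which Cd40 went against the labels, 8 of 9 were called in Xcr1Cre+ and 6 in Xcr1++, where Nod1 and Nod2 were lost (limma adjusted p = 0.0974 and 0.0708). Without replicate 2, 7 were called under each label, and Nod2 was lost in both (0.05005 in Xcr1Cre+ and 0.0960 in Xcr1++). Calls over all 19938 genes fell as well, from 5648 in Xcr1Cre+ and 5206 in Xcr1++ with all arrays. They were 3088 and 2864 without replicate 3, and 3077 and 3092 without replicate 2.

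Nlrp3 (probe set 10376513, chromosome 11), the sensor, and Il1b had the largest differences of the 9 under both labels, and in Xcr1++ the values of these genes differed by less than their standard errors. The Nlrp3 intensity in Xcr1Cre+ was 34.0, 29.3 and 29.7 in lymph node against 582, 658 and 622 in spleen, for replicates 1, 2 and 3. In Xcr1++ Nlrp3 was 35.3, 38.5 and 35.3 in lymph node against 690, 584 and 569 in spleen. Every spleen array was thus more than an order of magnitude above every lymph node array, and the lymph node values were close to the background of 22.2. Nlrp3 fell by 4.32 ± 0.12 on the log2 scale in Xcr1Cre+, a 20.0-fold lower level (limma, adjusted p = 1.14e-10). It fell by 4.07 ± 0.12 in Xcr1++ (16.9-fold, adjusted p = 1.22e-10). Errors on differences are standard errors from the fit, with 3 arrays a group. These were the 16th and the 26th largest falls of all 19938 genes.

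Pycard (10568355, chromosome 7), the adaptor, varied between replicates more than between tissues. It was 1404, 636 and 860 in lymph node against 1537, 909 and 884 in spleen in Xcr1Cre+. In Xcr1++ it was 1530, 718 and 605 in lymph node against 1366, 718 and 745 in spleen. The replicate 1 array was the highest of each group, and the tissues overlapped. The difference was -0.23 in Xcr1Cre+ (95% interval -1.05 to 0.59, limma adjusted p = 0.703) and -0.05 in Xcr1++ (-0.86 to 0.77, adjusted p = 0.961). With the replicate number as a block in the fit, the intervals were narrower. They were -0.50 to 0.05 in Xcr1Cre+ (limma adjusted p = 0.173) and -0.32 to 0.23 in Xcr1++ (0.840).

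Casp1 (10582985, chromosome 9), the caspase that matures IL-1β, was higher in lymph node. Its intensity in Xcr1Cre+ was 766, 652 and 676 in lymph node against 359, 318 and 325 in spleen. For Xcr1++ Casp1 was 636, 713 and 616 in lymph node against 394, 214 and 277 in spleen. All lymph node arrays lay above all spleen arrays. Casp1 rose by 1.06 ± 0.19 in Xcr1Cre+ (2.09-fold, limma adjusted p = 0.000732) and by 1.19 ± 0.19 in Xcr1++ (2.29-fold, adjusted p = 0.00029).

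Casp4 (10582997, chromosome 9), the lipopolysaccharide-sensing caspase, is the next protein-coding gene after Casp1. The Xcr1Cre+ values were 972, 984 and 1108 in lymph node against 457, 243 and 275 in spleen. Casp4 in Xcr1++ was 1125, 936 and 1046 in lymph node against 397, 257 and 308 in spleen. The lymph node arrays were close together, and the spleen replicate 1 arrays were the highest of theirs. Casp4 rose by 1.70 ± 0.22 in Xcr1Cre+ (3.26-fold, limma adjusted p = 4.55e-05) and by 1.71 ± 0.22 in Xcr1++ (3.27-fold, adjusted p = 4.56e-05). Casp1 and Casp4 are related in sequence, and whether their probes cross-hybridise was not checked, since probe sequences were not used.

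Gsdmd (10424731, chromosome 15), the pore former, was also higher in lymph node. Its intensity in Xcr1Cre+ was 569, 961 and 1060 in lymph node against 307, 393 and 376 in spleen. Gsdmd in Xcr1++ was 782, 1065 and 1226 in lymph node against 268, 352.5 and 384 in spleen. The replicate 1 array was the lowest of each group, yet in lymph node it stayed above every spleen array. Gsdmd rose by 1.23 ± 0.24 in Xcr1Cre+ (2.34-fold, limma adjusted p = 0.00149) and by 1.60 ± 0.24 in Xcr1++ (3.04-fold, adjusted p = 0.00017).

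Il1b (10487597, chromosome 2), which encodes the main cytokine product, was far lower in lymph node. The Xcr1Cre+ values were 342, 248 and 207 in lymph node against 3045, 4130 and 4063 in spleen. For Xcr1++ Il1b was 189, 237 and 183 in lymph node against 3112, 3209 and 3797 in spleen. The tissues were far apart on all arrays, and the lymph node values were still well above background. Il1b fell by 3.84 ± 0.20 in Xcr1Cre+ (14.3-fold, limma adjusted p = 1.06e-08, the 40th largest fall). It fell by 4.06 ± 0.20 in Xcr1++ (16.7-fold, adjusted p = 6.46e-09, the 28th largest fall).

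Il18 (10585194, chromosome 9) encodes the other cytokine that caspase-1 matures, which drives interferon-γ release by T and NK cells. Its intensity in Xcr1Cre+ was 191, 95.3 and 132 in lymph node against 640, 449 and 371 in spleen. Il18 in Xcr1++ was 152, 113 and 87.5 in lymph node against 649, 273 and 397 in spleen. All lymph node arrays were lower than all spleen arrays, and replicate 1 was the highest of each group. Il18 fell by 1.82 ± 0.33 in Xcr1Cre+ (3.54-fold, limma adjusted p = 0.000691) and by 1.85 ± 0.33 in Xcr1++ (3.61-fold, adjusted p = 0.00063).

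Nod1 (10544891, chromosome 6), which senses cell wall fragments that hold diaminopimelic acid, was lower in lymph node. The Xcr1Cre+ values were 53.5, 60.9 and 64.8 in lymph node against 116, 175 and 153 in spleen. For Xcr1++ Nod1 was 59.2, 66.4 and 53.2 in lymph node against 82.2, 142 and 208 in spleen. All lymph node arrays lay below all spleen arrays, and the spleen Xcr1++ arrays were the most spread. Nod1 fell by 1.29 ± 0.26 in Xcr1Cre+ (2.45-fold, limma adjusted p = 0.0015) and by 1.18 ± 0.26 in Xcr1++ (2.26-fold, adjusted p = 0.00307).

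Nod2 (10573790, chromosome 8), which senses muramyl dipeptide, had the smallest of the called differences. Its intensity in Xcr1Cre+ was 133, 112 and 108 in lymph node against 210, 182 and 178 in spleen. Nod2 in Xcr1++ was 115, 119 and 137 in lymph node against 184, 165 and 193 in spleen. The arrays of each group were close together and the tissues did not overlap. Nod2 fell by 0.69 ± 0.13 in Xcr1Cre+ (1.62-fold, limma adjusted p = 0.00106) and by 0.55 ± 0.13 in Xcr1++ (1.46-fold, adjusted p = 0.0061). In these bulk samples fewer cells that express a gene and less RNA per cell cannot be told apart.

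**Figure D1:**
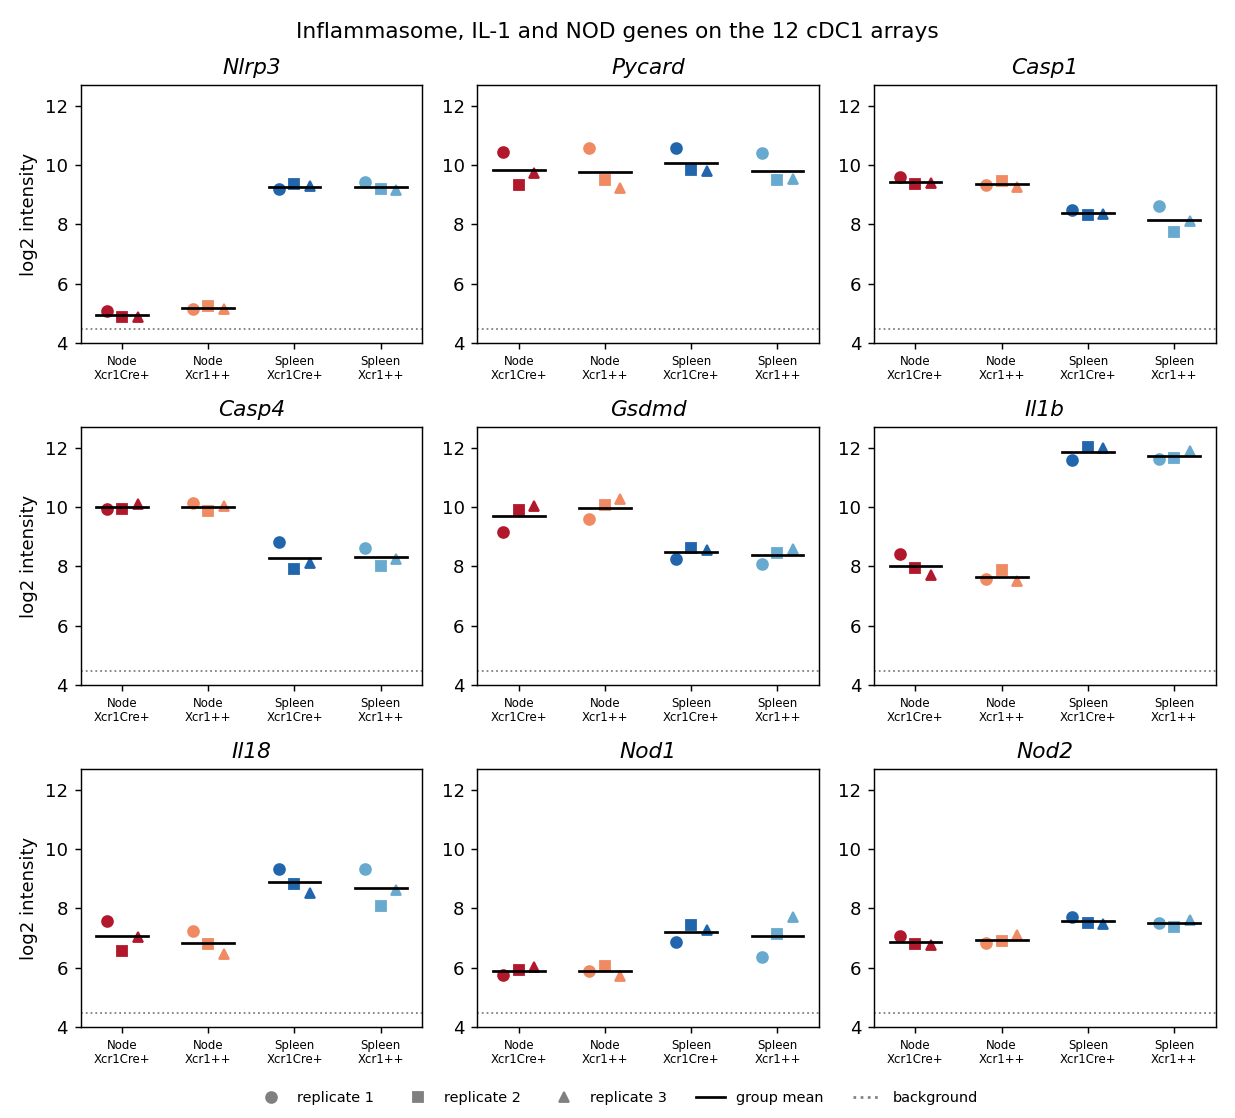
Log2 intensity (vertical axis) of each of the 9 genes on the 12 arrays, with the 4 groups on the horizontal axis, marker shapes for replicates 1 to 3, a bar for the group mean and a dotted line for the background of 22.2. Nlrp3 in lymph node lies just above the background line, and in Pycard, Il18 and Gsdmd the replicate 1 arrays sit at 1 edge of every group.

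**Figure D2:**
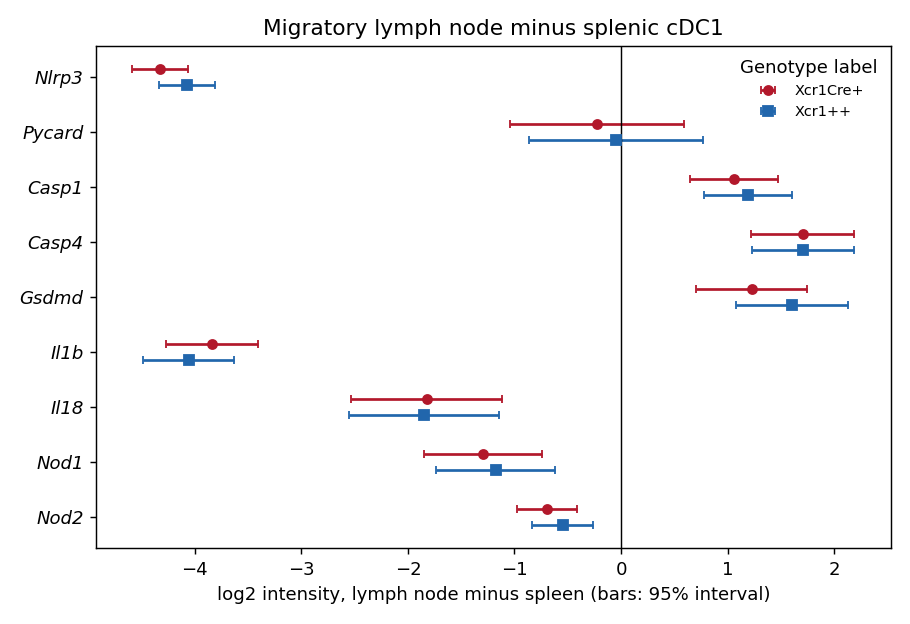
Lymph node minus spleen on the log2 scale (horizontal axis) for each gene, with circles for Xcr1Cre+, squares for Xcr1++ and bars for the 95% interval. Nlrp3 and Il1b lie near -4 under both labels, Casp1, Casp4 and Gsdmd lie above 0, and the Pycard intervals span 0.

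Replicate 1 stood at an edge of its group for many genes. Pycard and Il18 were highest, and Gsdmd lowest, on the replicate 1 array in all 4 groups, which is 3 of 9. Among all genes 33.3% had replicate 1 at the same extreme of all 4 groups (19.1% highest, 14.2% lowest). With the replicate number as a block, the same 8 members were called in both tissue comparisons. The block called 8167 of all 19938 genes in Xcr1Cre+ and 7176 in Xcr1++.

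Markers of other cell types were read beside these genes. The summed intensity of 13 measured macrophage and monocyte markers, of 15 listed, was 1411 to 1545 in lymph node Xcr1Cre+ and 1426 to 1554 in lymph node Xcr1++, against 4358 to 5822 in spleen Xcr1Cre+ and 4145 to 5483 in spleen Xcr1++. None of the 13 was at background in any group. Lyz2 averaged 77.3 ± 18.7 in lymph node Xcr1Cre+ and 1035 ± 149 in spleen Xcr1Cre+ (SD, n = 3 each), and Cd14 and Cd68 were also lower in lymph node in Xcr1Cre+, where the log2 level fell by 3.71 for Cd14 and fell by 2.55 for Cd68. Of the 13, 6 were called lower and 1, Vcam1, higher in lymph node in Xcr1Cre+, and 5 were lower and Vcam1 was higher in Xcr1++, with list medians of -0.19 and -0.28. C1qa, C1qb, C1qc, Mertk and Fcgr1 were not called under either label, with differences of -0.11 to 0.16. The sum and most of the called markers thus moved in the direction of Nlrp3, Il1b, Il18, Nod1 and Nod2, and the part of these markers in those differences was not tested. The 12 neutrophil markers summed to 415 to 462 in lymph node Xcr1Cre+ and 411 to 538 in lymph node Xcr1++, against 397 to 423 in spleen Xcr1Cre+ and 406 to 428 in spleen Xcr1++. The 9 measured T and NK cell markers, of 10 listed, summed to 760 to 1584 in lymph node Xcr1Cre+ and 894 to 1338 in lymph node Xcr1++. In spleen they summed to 829 to 945 in Xcr1Cre+ and 890 to 959 in Xcr1++. Of these 9, 3 were called higher and 2 lower in lymph node in Xcr1Cre+, and 3 higher and 1 lower in Xcr1++. The list medians were 0.01 in Xcr1Cre+ and -0.15 in Xcr1++. The 8 Langerhans cell and keratinocyte markers summed to 519 to 653 in lymph node Xcr1Cre+ and 521 to 587 in lymph node Xcr1++. In spleen they summed to 612 to 826 in Xcr1Cre+ and 549 to 856 in Xcr1++. Of these 8, 4 were called higher and 1 lower in lymph node in Xcr1Cre+, and 3 higher and 1 lower in Xcr1++. The list medians were 0.37 in Xcr1Cre+ and 0.17 in Xcr1++. The 8 measured B cell markers, of 9 listed, summed to 336 to 410.3 in lymph node Xcr1Cre+ and 303 to 399 in lymph node Xcr1++, against 513 to 570.3 in spleen Xcr1Cre+ and 459 to 522 in spleen Xcr1++. These sums did not overlap between tissues, and 1 of the 8 was called, Ms4a1, which fell by 2.53 in Xcr1Cre+ and fell by 2.20 in Xcr1++. The 8 cDC2 markers summed to 705 to 903 in lymph node Xcr1Cre+ and 651 to 854 in lymph node Xcr1++, against 722 to 864 in spleen Xcr1Cre+ and 632 to 877 in spleen Xcr1++, and 1 was called higher and 2 lower under each label. The part of the B cell markers in the lower members was not tested. The part of the T and NK cell markers, and of the Langerhans cell and keratinocyte markers, in the higher Casp1, Casp4 and Gsdmd was not tested either.

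The wider pathway was read through 6 lists with 70 genes, of which 58 were measured. Naip1, Nlrp12, Ifi204, Gbp2, Il36a, Il36b, Il36g, Il36rn, Il1r1, Il1rl1, Irak4 and Ripk2 were not analysed here. In every list genes were called in both directions, and the lists are to be read beside the 28.3% of all genes called in Xcr1Cre+ and the 26.1% in Xcr1++.

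Of 13 other inflammasome sensors and NLR proteins, 2 were higher and 5 lower in lymph node in Xcr1Cre+ and 2 higher and 4 lower in Xcr1++. With the replicate number as a block, 12 of the 13 were called in Xcr1Cre+, where the block called 8167 of all 19938 genes. The median over the list was -0.21 in Xcr1Cre+ and -0.20 in Xcr1++. Mefv, which encodes the sensor pyrin, averaged 51.7 ± 2.87 in lymph node and 597 ± 57.1 in spleen in Xcr1Cre+ (SD, n = 3 each). Mefv fell by 3.53 in Xcr1Cre+ and fell by 3.23 in Xcr1++ (limma adjusted p = 4.56e-09 and 9.13e-09). Nlrp1b, a sensor of bacterial proteases, fell by 1.94 in Xcr1Cre+ and fell by 2.25 in Xcr1++, its relative Nlrp1a fell by 1.30 in Xcr1Cre+ and fell by 0.70 in Xcr1++, and the flagellin sensor Naip6 fell by 1.19 in Xcr1Cre+ and fell by 0.91 in Xcr1++. Naip5 fell by 0.87 in Xcr1Cre+ and differed by -0.59 in Xcr1++, where its adjusted p was 0.0947 in limma. Nlrc5, a transactivator of MHC class I genes, rose by 1.18 in Xcr1Cre+ and by 1.08 in Xcr1++. Naip2 rose by 0.72 in Xcr1++ and Nlrp10 rose by 0.32 in Xcr1Cre+. Neither was called under the other label, and no difference between the labels was called for either. Nlrp10 averaged 37.3 in lymph node and 29.8 in spleen in Xcr1Cre+, close to the background of 22.2. Naip2, Naip5 and Naip6, and Nlrp1a and Nlrp1b, are close paralogs whose probes were not checked for cross-hybridisation. Aim2, the DNA sensor, averaged 1225 ± 376 in lymph node and 2122 ± 594 in spleen in Xcr1Cre+, and differed by -0.80 (limma adjusted p = 0.0572).

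The calls of Nlrc5, Naip2, Naip6 and Nlrp10 did not hold under every setting. The Nlrc5 call was lost in Xcr1Cre+ without spleen replicate 1, lymph node replicate 2 or lymph node replicate 3 (adjusted p = 0.0766, 0.0760 and 0.0766 in limma). In Xcr1++ it was lost without the arrays of the same tissue and number (0.126, 0.107 and 0.126). Naip2 was lost in Xcr1++ without replicate 1 or 2 of spleen or replicate 2 or 3 of lymph node (0.105, 0.0913, 0.138 and 0.0829), and Naip6 was lost in Xcr1++ without spleen replicate 3 (0.0586). Nlrp10 was lost in Xcr1Cre+ without replicate 2 or 3 of spleen or replicate 1 or 3 of lymph node (0.0684, 0.182, 0.173 and 0.0713). With all arrays kept, Nlrp10 was also lost with quantile normalization (0.143), with eBayes without a trend (0.0641) and with only the arrays of the comparison (0.0669). Without all replicate 3 arrays, Naip6 was lost in Xcr1Cre+ as well (0.0602) and Nlrp1a in Xcr1++ (0.0549).

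Of 14 triggers, caspases and genes of membrane rupture, 4 were higher and 2 lower in Xcr1Cre+ and 6 higher and 2 lower in Xcr1++, with list medians of 0.03 and 0.20. P2rx7, the ATP-gated channel whose opening sets off NLRP3, fell by 2.67 in Xcr1Cre+ and fell by 2.73 in Xcr1++ (limma adjusted p = 5.31e-08 and 4.21e-08). It averaged 71.6 ± 3.65 in lymph node and 461 ± 78.5 in spleen in Xcr1Cre+. Pstpip1, which binds pyrin, fell by 1.48 in Xcr1Cre+ and fell by 1.19 in Xcr1++. Serpinb1a, a serine protease inhibitor, rose by 4.15 in Xcr1Cre+ and by 3.85 in Xcr1++ (limma adjusted p = 4.99e-07 and 1.02e-06), with means of 2383 ± 408 in lymph node and 140.5 ± 56.7 in spleen in Xcr1Cre+. Gbp5, an interferon-induced GTPase, rose by 3.47 in Xcr1Cre+ and rose by 3.43 in Xcr1++. Serpinb9, which inhibits granzyme B, rose by 1.42 in Xcr1Cre+ and rose by 1.27 in Xcr1++, and Ninj1, which ruptures the membrane of dying cells, rose by 0.96 in Xcr1Cre+ and rose by 0.93 in Xcr1++. The Ninj1 call was lost in Xcr1Cre+ and in Xcr1++ without replicate 2 (adjusted p = 0.102 and 0.109 in limma) and without replicate 3 (0.117 and 0.149). Gbp5 and Serpinb9 were thus higher in lymph node together with Gsdmd, while P2rx7 was lower together with Nlrp3.

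Of 5 IL-1 family ligands and antagonists, 1 was higher and 1 lower under both labels, with list medians of 0.15 in Xcr1Cre+ and 0.05 in Xcr1++. Il18bp, a secreted protein that binds and blocks IL-18, averaged 412 ± 40.8 in lymph node and 117 ± 14.6 in spleen in Xcr1Cre+. Il18bp rose by 1.82 in Xcr1Cre+ and by 1.90 in Xcr1++ (limma adjusted p = 2.78e-06 and 1.9e-06), the opposite direction to Il18. Il1a, the gene of IL-1α, was 31.0, 23.6 and 25.5 in lymph node against 65.2, 53.9 and 60.1 in spleen in Xcr1Cre+. In Xcr1++ Il1a was 18.3, 29.5 and 28.7 in lymph node against 147, 31.1 and 41.5 in spleen, where replicate 1 stood far above the others. The lymph node values lay below the background of 22.2 or close to it, so they give only a rough size for the difference. Il1a fell by 1.17 in Xcr1Cre+ and fell by 1.20 in Xcr1++ (limma adjusted p = 0.0458 and 0.0426). Without spleen replicate 1 the Xcr1++ difference was -0.53 (adjusted p = 0.0753), and it was also lost without lymph node replicate 1, 2 or 3 (0.150, 0.0618 and 0.0691). The Xcr1Cre+ call was lost without any 1 of its 6 arrays, with adjusted p of 0.0618 to 0.117. With all arrays kept, both calls were lost with eBayes without a trend (0.0659 in Xcr1Cre+ and 0.0620 in Xcr1++). The Xcr1++ call was also lost with array weights, where the difference was -0.38 (0.181), and with only the arrays of the comparison (0.101). Il1rn, the IL-1 receptor antagonist, averaged 141 ± 37.1 in lymph node and 107 ± 21.4 in spleen in Xcr1Cre+ and was not called (0.38, limma adjusted p = 0.276).

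Of 6 IL-1 family receptors, 1 was higher and 2 lower in Xcr1Cre+ and 2 higher and 2 lower in Xcr1++, with list medians of 0.05 and 0.04. Il1r2, a decoy receptor that binds IL-1 without signalling, was 216, 43.4 and 35.8 in lymph node against 1834, 913 and 1066 in spleen in Xcr1Cre+. In Xcr1++ Il1r2 was 61.4, 45.3 and 43.5 in lymph node against 1716, 887 and 900 in spleen. The lymph node Xcr1Cre+ replicate 1 array was several times above the others of its group, and it still lay below every spleen array. Il1r2 fell by 4.13 ± 0.53 in Xcr1Cre+ and fell by 4.49 ± 0.53 in Xcr1++ (limma adjusted p = 3.6e-05 and 1.74e-05). Il1rap, the co-receptor of IL-1, fell by 1.53 in Xcr1Cre+ and fell by 1.16 in Xcr1++. Il18r1, a chain of the IL-18 receptor, rose by 0.92 in Xcr1Cre+ and by 0.74 in Xcr1++ and averaged 45.9 in lymph node and 23.8 in spleen in Xcr1Cre+, where spleen was close to the background of 22.2. Its Xcr1++ call was lost without spleen replicate 2 or 3 or lymph node replicate 3 (adjusted p = 0.0675, 0.0519 and 0.0788 in limma) and, with all arrays kept, with quantile normalization (0.0524). The Xcr1Cre+ call was lost without all replicate 2 arrays (0.0822). Sigirr, an inhibitory receptor, rose by 0.44 in Xcr1++, a call lost without replicate 2 or 3 of spleen or replicate 2 or 3 of lymph node (0.0896, 0.127, 0.0818 and 0.0889) and with only the arrays of the comparison (0.0745).

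Of 9 genes of MyD88 and IRAK signalling, which carries IL-1 and IL-18 receptor signals, 2 were higher and 2 lower in Xcr1Cre+ and 3 higher and 2 lower in Xcr1++. With the replicate number as a block, 7 of the 9 were called in Xcr1Cre+, where the block called 8167 of all 19938 genes. The list medians were -0.27 in Xcr1Cre+ and -0.08 in Xcr1++. Myd88, the adaptor, averaged 253 ± 31.5 in lymph node and 810 ± 110 in spleen in Xcr1Cre+ and fell by 1.68 in Xcr1Cre+ and fell by 1.48 in Xcr1++ (limma adjusted p = 3.25e-05 and 0.000102). The kinase Irak2 fell by 1.13 in Xcr1Cre+ and fell by 1.27 in Xcr1++. Irak3, a family member that restrains the pathway, rose 3.99-fold in Xcr1Cre+ and 4.67-fold in Xcr1++ (limma adjusted p = 2.4e-06 and 8.76e-07). The ubiquitin ligase Traf6 rose by 0.95 in Xcr1Cre+ and rose by 1.19 in Xcr1++, and Tab2, a partner of the kinase TAK1, rose by 0.41 in Xcr1++. The Traf6 call was lost in Xcr1Cre+ without replicate 1 or 3 of spleen or replicate 2 or 3 of lymph node (adjusted p = 0.120, 0.0503, 0.143 and 0.0521 in limma) and in Xcr1++ without lymph node replicate 3 (0.0509). The Tab2 call was lost without any of 5 of its 6 arrays, all but lymph node replicate 1 (0.0770 to 0.150), and with only the arrays of the comparison (0.0575). Irak2 was lost in Xcr1Cre+ without all replicate 3 arrays (0.0611).

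Of 11 genes of NOD signalling and of the transport of cell wall fragments, 4 were higher and 3 lower under both labels, with list medians of 0.10 in Xcr1Cre+ and 0.16 in Xcr1++. Birc2, a ubiquitin ligase of the NOD complex, rose by 3.02 in Xcr1Cre+ and rose by 3.12 in Xcr1++, and its relative Birc3 rose by 1.41 in Xcr1Cre+ and rose by 1.44 in Xcr1++. Birc2 averaged 2477 ± 473 in lymph node and 302 ± 34.5 in spleen in Xcr1Cre+ (limma adjusted p = 2.7e-07). Tnfaip3, which encodes the NF-κB inhibitor A20, rose by 1.18 in Xcr1Cre+ and rose by 1.42 in Xcr1++. Slc15a3 and Slc15a4, lysosomal transporters that can pass NOD ligands to the cytosol, went in opposite directions. Slc15a3 fell by 2.13 in Xcr1Cre+ and fell by 2.46 in Xcr1++, and Slc15a4 rose by 0.66 in Xcr1Cre+ and rose by 0.67 in Xcr1++. Xiap, a ubiquitin ligase needed for NOD2 signals, fell by 1.32 in Xcr1Cre+ and fell by 1.04 in Xcr1++, and Erbin, which binds NOD2, fell by 1.45 in Xcr1Cre+ and fell by 1.23 in Xcr1++. The Slc15a4 call was lost in Xcr1Cre+ and in Xcr1++ without replicate 2 (adjusted p = 0.105 and 0.141 in limma) and without replicate 3 (0.138 and 0.210). Without replicate 3, Tnfaip3 was also lost in Xcr1Cre+ (0.0882) and Xiap in Xcr1++ (0.122).

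**Figure D3:**
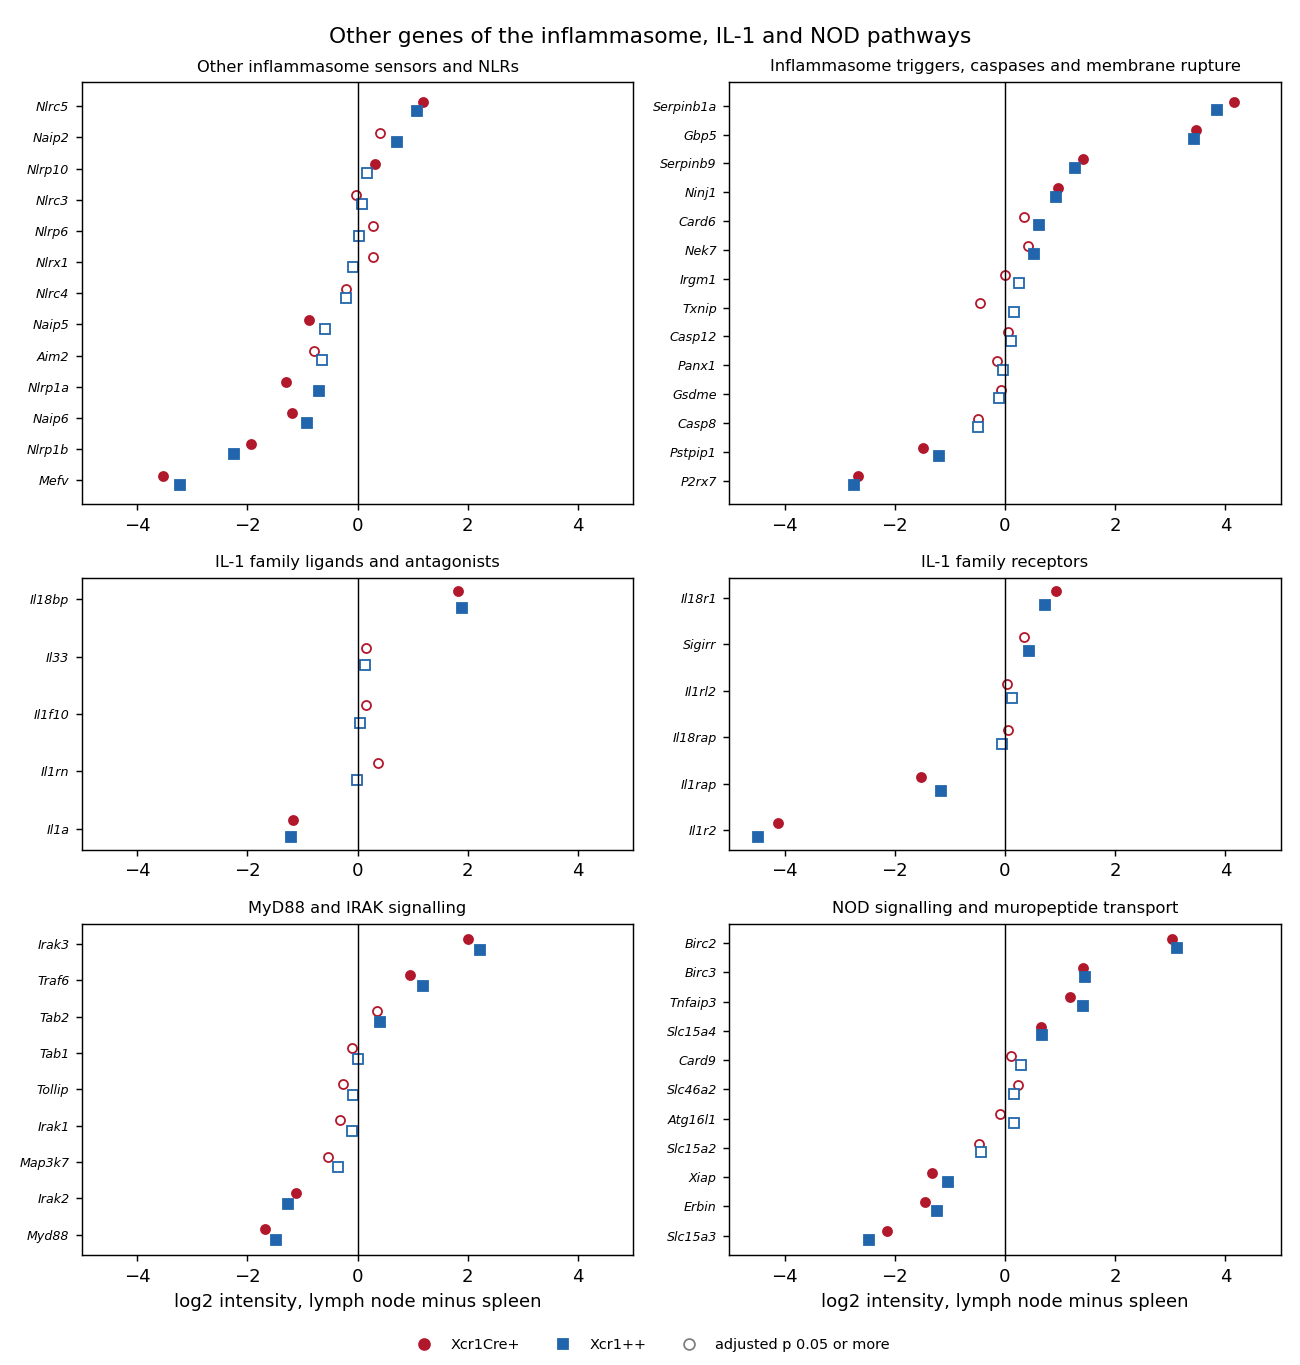
Lymph node minus spleen on the log2 scale (horizontal axis) for the 58 measured pathway genes in 6 lists, with circles for Xcr1Cre+, squares for Xcr1++ and filled marks for adjusted p under 0.05. Serpinb1a, Gbp5 and Birc2 stand at the upper end, and Il1r2, Mefv and P2rx7 at the lower.

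The comparison the series was made for, with and without Cre, gave no call among these genes. In limma 0 of 9 members and 0 of 19938 genes (0%) were called in lymph node, in spleen and averaged over both tissues. Cd40, the targeted gene, was thus not called either. Its difference, Xcr1Cre+ minus Xcr1++, was -0.15 ± 0.40 in lymph node and -0.35 ± 0.40 in spleen (limma adjusted p = 0.9997 and 0.9998). Since the labelled groups were not called different in Cd40, an effect of CD40 loss on the members was not tested. At an unadjusted p under 0.05, 401 genes passed in lymph node, 356 in spleen and 382 in the average, and none of the 9 was among them. The difference of the genotype effect between tissues was not called for any gene either, with 326 below an unadjusted 0.05 and again none of the 9. Replicate 3, in which Cd40 went against the labels, is included in these values; without it, again 0 of 9 members and 0 genes were called in each of these comparisons. Array weights in limma called 51 genes in spleen and 2 in lymph node, none of them a member.

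In lymph node the difference in Nlrp3, Xcr1Cre+ minus Xcr1++, was -0.23 (95% interval -0.49 to 0.03). Its 3 Xcr1Cre+ arrays were all below its 3 Xcr1++ arrays, the only member whose groups did not overlap. Among all genes 2.7% lay lower and 2.01% higher without overlap in that comparison. In Il1b the lymph node difference was 0.37 (-0.06 to 0.79), and the same-numbered pairs differed by 0.85, 0.06 and 0.18. Replicate 1 set most of that group difference, which was 0.12 without it and -0.0090 with array weights on all arrays. In Gsdmd the lymph node difference was -0.27 (-0.80 to 0.25). With the replicate number as a block, the Gsdmd interval was -0.52 to -0.025 and left out 0 (limma, adjusted p = 0.727). Il18 differed by 0.23 (-0.48 to 0.93), Casp1 by 0.09 (-0.32 to 0.51) and Pycard by 0.07 (-0.75 to 0.89). With the block, the Il18 interval was -0.14 to 0.59 and the Pycard interval -0.20 to 0.34. Casp4, Nod1 and Nod2 differed by -0.02 (-0.50 to 0.46), 0.00 (-0.55 to 0.56) and -0.07 (-0.36 to 0.21).

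In spleen no member's groups were without overlap, against 2.68% of all genes higher and 4.96% lower. Pycard differed by 0.25 (95% interval -0.56 to 1.07). With the replicate number as a block, the intervals were -0.02 to 0.53 for Pycard and -0.16 to 0.57 for Il18. Casp1 differed by 0.22 (-0.19 to 0.64), Il18 by 0.20 (-0.51 to 0.91), Il1b by 0.14 (-0.29 to 0.57) and Nod1 by 0.12 (-0.43 to 0.67). Gsdmd differed by 0.11 (-0.42 to 0.63), Nod2 by 0.07 (-0.21 to 0.36), Nlrp3 by 0.02 (-0.24 to 0.28) and Casp4 by -0.01 (-0.49 to 0.47). Among the pathway lists the gene with the smallest unadjusted p was Nlrp1a in spleen (0.37, limma adjusted p = 0.9998) and Irgm1, an interferon-induced GTPase, in lymph node (-0.32, limma adjusted p = 0.9997).

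**Figure D4:**
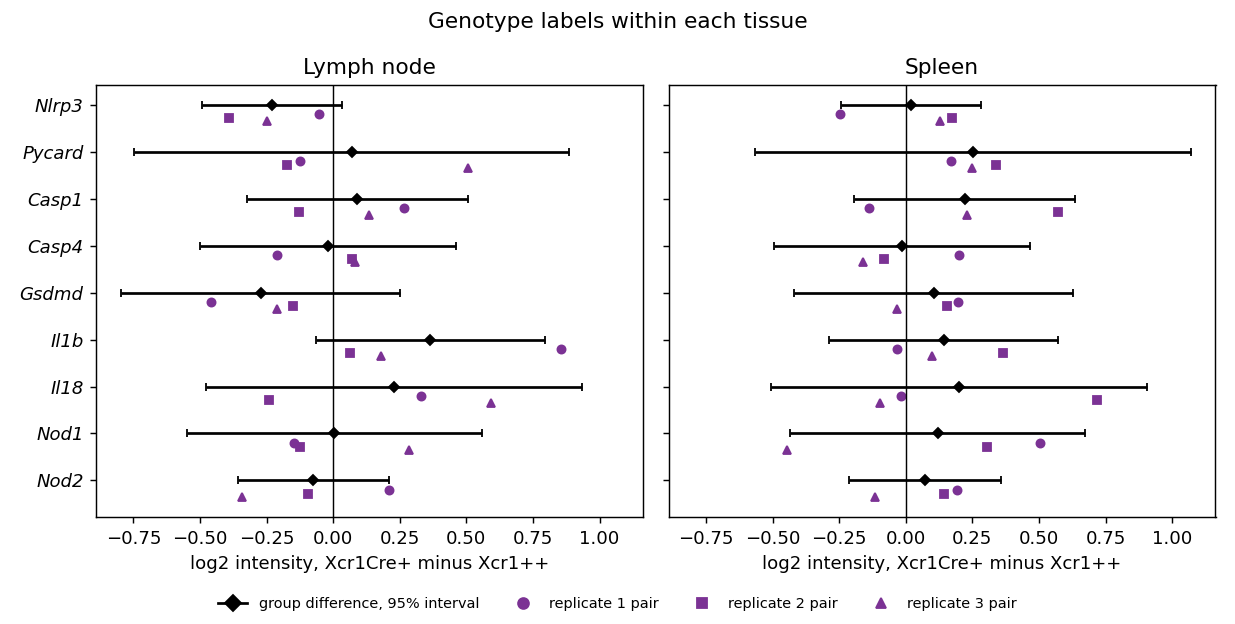
Xcr1Cre+ minus Xcr1++ on the log2 scale (horizontal axis) for the 9 genes in lymph node (left) and spleen (right), with diamonds for the group difference, bars for its 95% interval and coloured marks for same-numbered pairs. The intervals are from the fit without a replicate block and every one spans 0, that of Nlrp3 in lymph node (-0.49 to 0.03) by the smallest margin.

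The genes whose log2 pattern over the 12 arrays was most like each member's were found by Pearson's r, as a description. Since the arrays fall into 2 tissue clusters and share replicate numbers, high values follow for any gene with the same tissue difference. For Nlrp3 they were Unc119b (0.998), Mctp1 (0.997) and Serpinb8 (0.997), and for Il1b they were Gcsam (0.998), Scarb1 (0.998) and Adgrl3 (0.997). Casp4 was followed most closely by Iffo2 (0.992), Gsdmd by Atp11a (0.995), Casp1 by Gas5 (0.986), Il18 by Dtymk (0.992), Nod1 by Nipal3 (0.985) and Nod2 by Tbl1xr1 (0.983). Pycard, which did not part the tissues, was closest to Rpl27 (0.988), Cox7a2 (0.984) and Ndufs6 (0.982), a ribosomal protein gene and a pair of respiratory chain genes.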

How the data were processed

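Sorted cDC1 RNA was measured in 12 samples, with biotinylated cDNA prepared from very small amounts of total RNA, per the labels' protocols. The deposited intensities, 1 per probe set and array on a linear scale, were computed by the authors; the submitters' processing notes name RMA and Affymetrix Expression Console, with no version given in the sources used here. Of 28853 probe sets, 23410 were listed in the platform annotation, 21789 with 1 symbol, 1621 with several symbols (not tested) and 5443 not listed. Symbols were updated through RefSeq for 21698, and the brightest probe set per gene left 19938 genes.

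A limma model (limma 3.58.1 under R 4.3.3, tables read with the data.table package, 1.17.8) of log2 values had 4 group means over all 12 arrays and a trended eBayes, two-sided, with Benjamini-Hochberg adjustment over all genes within each of 6 comparisons, with calls made below an adjusted p of 0.05. The code was tested on simulated data. The number of arrays limits the precision. On each array 85.8% to 90.3% of genes lay above the background of 22.2. Figures were made in Python 3.11.15 with matplotlib 3.10.9.

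Deviations from group means correlated over genes between same-numbered arrays, 6 pairs a number: Pearson's r was 0.571 to 0.728 in replicate 1, 0.310 to 0.450 in replicate 2 and 0.293 to 0.465 in replicate 3. Every same-number r was positive. For 36 pairs of arrays with different numbers and groups, r ran from -0.633 to 0.557. That range reached above every r of replicates 2 and 3, so only replicate 1 stood apart. The main fit had no block, and a replicate block was an alternative. The other alternatives were quantile normalization, eBayes without a trend, array weights, genes above background only, the mean of all probe sets of a gene, only the arrays of a comparison, and leaving out each array or replicate number. The members, the lists and the rule for named genes were chosen with earlier results of these data known. The rule named the members, Cd40 and Xcr1, up to 4 called genes with the largest rise and 4 with the largest fall per pathway list and tissue comparison, and the gene with the smallest unadjusted p where none was called. Aim2, Il1rn and the marker genes given with values were named after their values were seen. Promoter windows came from RefSeq (GRCm38.p6).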

Additional observations from a re-analysis of the deposited data

How the results depend on the processing

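Tissue calls of the 9 genes held under every setting that kept all arrays and with any single array left out, 8 of 9 under both labels. The mean of all probe sets is no check of the members, since each had 1 probe set and its values stayed the same. The replicate block changed no member's call: 8 were called in each tissue comparison and 0 in each genotype comparison. The block put 1359 genes in lymph node and 887 in spleen below an unadjusted genotype p of 0.05, against 401 and 356. With it Gsdmd in lymph node had an unadjusted p of 0.0333 (limma, adjusted p = 0.727). The genotype counts of all genes stayed at 0 except with array weights (51 in spleen, 2 in lymph node, 3 for the difference between tissues) and with a replicate block on numbers other than 3, chosen after seeing the data (1 in lymph node). Array weights gave 8935 tissue calls in Xcr1Cre+ and 9015 in Xcr1++, against 5648 and 5206, and the block gave 8167 and 7176. Leaving out arrays gave 3077 to 7687 in Xcr1Cre+ and 2864 to 6905 in Xcr1++, lowest without replicate 2 and without replicate 3, highest without replicate 1. Calls among the 13 other sensors then ran from 3 to 8 in Xcr1Cre+ and 2 to 9 in Xcr1++. Causes of these shifts were not tested.

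Several differences changed sign, and not only those near 0: that of Il1b in lymph node was 0.37 in the main fit. With quantile normalization the genotype difference was -0.013 for Nlrp3 in spleen and 0.030 for Casp4 in lymph node. With array weights in lymph node it was -0.053 for Casp1, 0.15 for Casp4, -0.0090 for Il1b and -0.053 for Nod1. With arrays left out, Pycard between tissues ran from -0.54 to 0.035 in Xcr1Cre+ and -0.45 to 0.25 in Xcr1++. Genotype differences in lymph node then ran from -0.24 to 0.48 for Pycard, -0.089 to 0.077 for Casp4, -0.46 to 0.0032 for Gsdmd, -0.028 to 0.47 for Il18, -0.14 to 0.085 for Nod1 and -0.22 to 0.058 for Nod2, while Il1b, at 0.12 to 0.53, kept its sign. In spleen they ran from -0.059 to 0.15 for Nlrp3, -0.0070 to 0.55 for Pycard, -0.29 to 0.17 for Casp4, -0.047 to 0.21 for Gsdmd, -0.098 to 0.53 for Il18, -0.23 to 0.44 for Nod1 and -0.00033 to 0.17 for Nod2. None of these was called. Nlrp3 in lymph node, at 29.3 to 38.5 against a background of 22.2, leaves little room below it.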
